A study of Mus musculus with 6 samples.

Results

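AP-1 is the transcription factor formed when basic leucine zipper (bZIP) proteins pair up on DNA. The genes described here are 10 relatives of *Jun* in that family: *Fos*, *Fosb*, *Fosl1*, *Fosl2*, *Junb*, *Jund*, *Atf3*, *Batf*, *Batf2* and *Maff*. They were chosen by name, with earlier results of these data known, and 8 of the 10 were found among the 59485 genes of the table. *Junb* and *Jund*, as well as *Jun* itself, were not analysed here.

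Sciatic nerves were collected at postnatal day 4 (P4) from 3 control mice and 3 mutant mice, and each animal gave 1 RNA-seq library. The mutants carried Ht-PA-Cre; Adar1fl/fl;R26R. In them, Cre is driven by the human tissue plasminogen activator promoter, which is active in neural crest cells, deletes floxed *Adar* (the gene of the RNA editing enzyme ADAR1) there, and switches on the YFP tracer R26R. The controls are labelled wild-type, and according to the methods they carried floxed *Adar* alleles and R26R without Cre. Neural crest cells give rise to Schwann cells, but a whole nerve also holds fibroblasts, perineurial cells, vessels and blood cells.

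AP-1 dimers combine a Jun protein with a Fos, ATF or BATF protein, while small MAF proteins pair with Fos proteins or with factors such as NRF2, and the partner sets which sites are bound and how strongly. Fos proteins cannot pair with each other and depend on a Jun partner, and small MAF proteins lack a transactivation domain. Several of these genes are immediate early genes, which cells transcribe within minutes of growth factor, stress or cytokine signals without new protein synthesis. In peripheral nerve, Jun and its partners are best known for the programme that Schwann cells and neurons switch on after injury.

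Values are read counts per gene that the authors divided by 1 size factor per library, called normalized counts here. They are not corrected for gene length, so levels are compared between libraries and not between genes. The libraries held 50938349 to 78250094 reads on genes, and 1 read was worth 0.727 to 1.27 normalized counts. The change of each gene is the log2 fold change, mutant-labelled minus control-labelled, from limma on log2(normalized count + 1) over 25802 genes with a mean of at least 10 in at least 1 genotype. The added 1 shrinks the changes of genes near 0, whereas in genes with few reads whose libraries differ, the mean of the logs can also give a larger change than the ratio of the means. The threshold was a raw p no higher than 0.05 together with at least 2-fold change, and p-values adjusted by the Benjamini-Hochberg method cover every tested gene. Of these genes, 24.2% passed, 13.9% as higher and 10.4% as lower in the mutant-labelled libraries, and their median log2 fold change was 0.032.

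The targeted gene *Adar* went against its label. The 3 control libraries had 1602, 2066 and 1133 normalized counts of it and the 3 mutant libraries 11768, 9311 and 9773, a log2 fold change of 2.72 (SE 0.20, limma adjusted p = 4.1e-05). With a single value for the whole gene, the deleted segment cannot be told apart from the rest. Groups are for this reason named control-labelled and mutant-labelled, or controls and mutants for short, and every direction rests on the labels. Summed levels of cell type markers differed between the groups too, without showing whether cell numbers did. The summed Schwann cell markers ran from 1127760 to 1495480 in the controls and from 49027 to 203871 in the mutants, with 4 of 6 markers lower past the threshold and none higher. *Sox10* (-0.71, limma adjusted p = 0.00874) and *Foxd3* (-0.38, limma adjusted p = 0.0498) were lower by less than 2-fold. Skeletal muscle markers summed to 3109 to 17386 against 19979 to 154273 (5 of 6 higher), and sensory neuron markers to 1128 to 1454 against 3680 to 3788 (3 of 5 higher). Most of the neuronal sum was *Tubb3* (mean 908 and 3016), while *Snap25* did not pass and *Rbfox3* and *Isl1* had means of at most 85.0. *Prph* (0.66, limma adjusted p = 0.0195) was higher by less than 2-fold. With a control mean of 5.88, *Rbfox3* was tested only through the mutant-labelled libraries. Fibroblast markers summed to 2492100 to 2894380 against 1015170 to 1489830, with the collagen genes *Col1a1* (-1.10), *Col1a2* (-1.01) and *Col3a1* (-1.22) lower and the other 3 not past the threshold.

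The promoters of the measured members were read from RefSeq (build GRCm38.p6, the assembly also named mm10), which gave 8 promoters of 6 members, 3 of them for *Maff*. *Fosl1* and *Batf2* had no entry. Each covered 250 bases before and 50 bases after a RefSeq start site. The motif that recurred was TGACGT, the core of the cyclic AMP response element (CRE) bound by CREB and ATF proteins, which was present on either strand in 4 of the 8 promoters and in 7.51% of all 32851 promoters. These letters were chosen after the promoters had been seen. The 250 bases before the start site of these 4 promoters are shown 5′ to 3′ on the strand of the gene, with the matches in capitals. They lie at chr12:85473640-85473889 (plus strand) for *Fos*, chr12:85686470-85686719 (plus strand) for *Batf*, chr1:191183334-191183583 (minus strand) for *Atf3* and chr15:79347270-79347519 (plus strand) for *Maff*.
Fos: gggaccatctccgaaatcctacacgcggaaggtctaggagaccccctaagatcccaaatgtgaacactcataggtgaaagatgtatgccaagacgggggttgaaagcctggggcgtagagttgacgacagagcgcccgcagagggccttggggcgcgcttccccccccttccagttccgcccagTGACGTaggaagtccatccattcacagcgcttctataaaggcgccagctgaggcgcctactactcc
Batf: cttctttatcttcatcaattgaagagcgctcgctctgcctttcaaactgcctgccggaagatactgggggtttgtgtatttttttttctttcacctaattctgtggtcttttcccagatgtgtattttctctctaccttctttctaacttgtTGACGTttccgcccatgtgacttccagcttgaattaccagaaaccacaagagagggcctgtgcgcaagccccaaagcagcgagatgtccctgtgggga
Atf3: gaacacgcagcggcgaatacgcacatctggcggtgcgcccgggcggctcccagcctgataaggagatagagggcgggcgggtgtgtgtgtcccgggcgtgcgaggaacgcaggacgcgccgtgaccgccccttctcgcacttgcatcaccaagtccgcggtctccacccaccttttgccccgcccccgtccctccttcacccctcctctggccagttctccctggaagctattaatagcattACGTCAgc
Maff: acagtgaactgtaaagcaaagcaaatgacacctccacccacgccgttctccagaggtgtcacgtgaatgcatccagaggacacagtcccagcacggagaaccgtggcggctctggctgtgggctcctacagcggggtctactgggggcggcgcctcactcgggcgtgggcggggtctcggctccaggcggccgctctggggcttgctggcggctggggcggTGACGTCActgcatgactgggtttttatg
The match began 66 bases before the start site in *Fos*, 98 bases before it in *Batf* and 8 bases before it in *Atf3*, where it lay on the opposite strand. In *Maff* it began 29 bases before the start site and formed the full palindrome TGACGTCA, in which TGACGT overlaps itself on the other strand and which 1.79% of all promoters held.

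The other motifs searched were in at most 1 of the 8. The AP-1 site TGACTCA was in 0 of 8 member promoters and in 5.2% of all promoters, and the CArG box, bound by SRF, was in 0 of 8 and in 1.63%. GAAANNGAA, a pattern bound by interferon regulatory factors, was found only in the promoter of *Fosl2* among the 8, with matches beginning 250 and 220 bases before the start site, and in 8.56% of all promoters. TTCNNNGAA, the pattern bound by STAT dimers, was in 1 of 8 (a *Maff* promoter, after its start site) and in 8.3% of all. Motifs were searched on both strands over the whole window. A match describes letters in a window and not a bound site.

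All 8 measured members were higher in the mutant-labelled libraries past the threshold, set beside 13.9% of all tested genes. The members were chosen with earlier results of these data known, so the contrast is a description and not a test. In each of the 8, the lowest mutant-labelled library lay above the highest control-labelled one, which held for 25.9% of tested genes. Their median log2 fold change was 2.76, and with the adjusted p at or under 0.05 the count was 7, without *Batf*. The changes ran from 1.89 for *Batf* to 6.83 for *Fosl1*. In a whole nerve, fewer or more cells of a type and less or more RNA per cell cannot be told apart, and this applies to every value below.

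**Figure D1:**
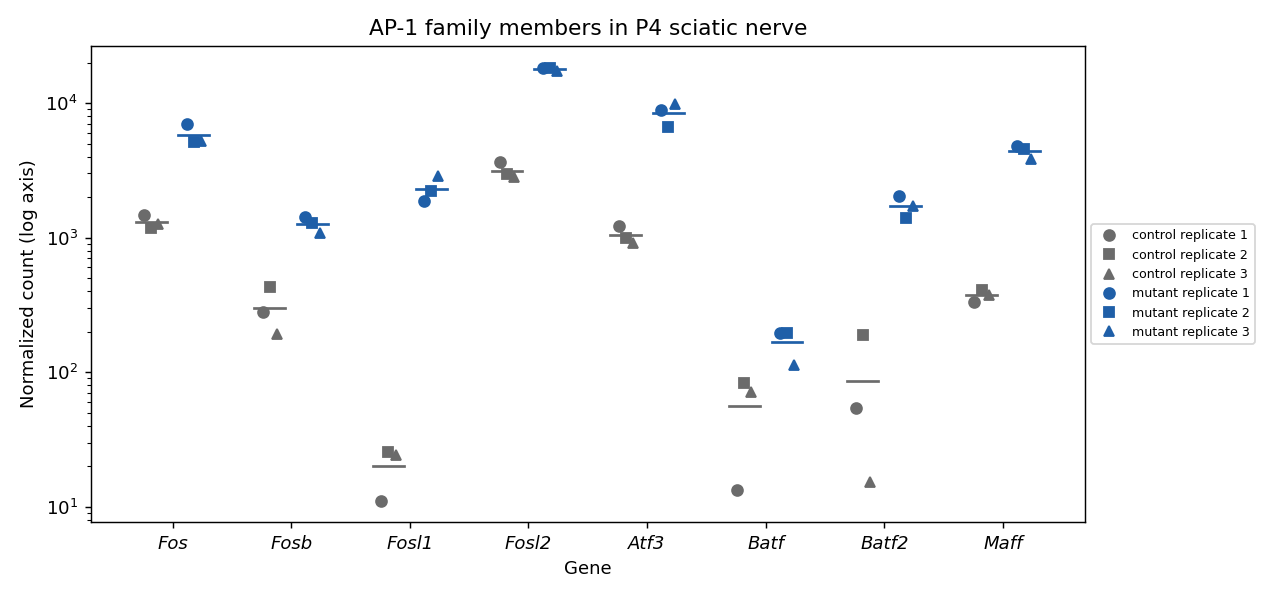
Normalized counts (log axis) of the 8 measured members in each of the 6 libraries, with control-labelled libraries in grey, mutant-labelled libraries in blue, a marker shape per replicate number and a line at each group mean. In every gene the 3 blue points lie above the 3 grey points, with the narrowest gap in *Batf* (lowest mutant-labelled 1.37 times the highest control-labelled). Counts are not corrected for gene length, so heights are not comparable between genes.

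The 4 Fos proteins are the partners that depend on a Jun protein. *Fos* (GSMG0008335, chr12:85473889-85477273, plus strand), the prototype immediate early gene of the family, had normalized counts of 1467, 1178 and 1261 in control replicates 1 to 3. The mutant-labelled libraries had 7047, 5112 and 5199.6. Both groups were narrow beside the gap between them. The means were 1302 ± 149 and 5786 ± 1093 (SD, n = 3), a log2 fold change of 2.14 (SE 0.15, 95% interval 1.80 to 2.48, limma adjusted p = 2.88e-05).

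*Fosb* (GSMG0035578, chr7:19302696-19310045, minus strand) encodes a related transactivator with a long-lived truncated isoform, which a value per gene does not resolve. Its control-labelled values were 282, 431 and 191, and its mutant-labelled values 1414, 1290.0 and 1080.1. Control replicate 2 was the highest control, and the lowest mutant-labelled library was 2.51 times as high. The log2 fold change was 2.13 (SE 0.28, adjusted p = 0.000639 by limma), close to that of *Fos*.

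*Fosl1* (GSMG0019303, chr19:5447545-5455945, plus strand) encodes FRA1, a Fos protein without the transactivation domain of FOS that is itself an AP-1 target. It was near the floor in the control-labelled libraries, with 11.1, 25.5 and 24.1 normalized counts from 10, 27 and 19 reads. The mutant-labelled libraries had 1865, 2208 and 2875. The lowest of them was 73.1 times the highest control-labelled library. The means were 20.2 ± 7.94 and 2316 ± 514 (SD, n = 3) and their ratio 114. With a log2 fold change of 6.83 (SE 0.34, 95% interval 6.05 to 7.61, limma adjusted p = 6.33e-06), *Fosl1* ranked 59th among the 3580 genes that passed as higher. It overlaps *Ccdc85b* on the other strand over 2783 bases, and *Ccdc85b* moved the other way, from a mean of 4579 to 2052. It also overlaps an unnamed gene there (GSMG0066985) over 2152 bases, which moved the same way, with no control reads and a mean of 22.4 in the mutant-labelled libraries. *Fos*, *Fosl2* and *Atf3* each overlap 1 unnamed gene on the other strand with a mean of at most 107 in either group, and *Batf2* overlaps *Arl2* over 159 bases (means 3208 and 2831). The libraries were oriented, but the sources used here do not say whether the counting used strand, without which reads of such pairs cannot be told apart.

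*Fosl2* (GSMG0029026, chr5:32135849-32157831, plus strand) encodes FRA2. Its values were 3623, 2986 and 2841 in the control-labelled libraries and 18199, 18353 and 17186 in the mutant-labelled ones. The mutant-labelled libraries differed by at most 1.07-fold from each other, the narrowest group of any member. The log2 fold change was 2.51 (SE 0.11, 95% interval 2.27 to 2.76, adjusted p = 3.4e-06 by limma), and the ratio of the means was 5.69.

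Summed over the 4 Fos genes, normalized counts rose from 4774 ± 549 to 27276 ± 1125 (SD, n = 3), 5.71-fold. The makeup of that sum was compared as the share of each gene in the Fos family reads of a library, which needs no scaling between libraries. The shares rest on 3407 to 4890 reads in the control-labelled and 26632 to 39215 reads in the mutant-labelled libraries. *Fosl1* took 0.206, 0.552 and 0.558% of these reads in the control-labelled libraries, in replicate order, and 6.54, 8.19 and 10.9% in the mutant-labelled ones. The Clopper-Pearson 95% intervals, which cover counting error only, reached at most 0.870% in the controls and began at 6.30% or above in the mutants. The difference was 8.11 percentage points (exact two-sided permutation p = 0.1, the smallest that 3 against 3 can give, adjusted p = 0.2 over 4 shares). The share of *Fos* was 27.3 ± 1.85% in the controls and 21.1 ± 3.12% in the mutants, without overlap (exact permutation p = 0.1, adjusted p = 0.2). Shares sum to 100%, so a larger share of *Fosl1* lowers the others. Among the reads of the other 3 genes, an alternative added after the shares were seen, *Fos* held 25.6 to 29.4% in the controls and 20.6 to 26.4% in the mutants, and the groups overlapped (exact permutation p = 0.2). *Fosb* (6.33 and 4.61%, exact permutation p = 0.4) and *Fosl2* (65.9 and 65.7%, exact permutation p = 0.9) had overlapping shares.

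**Figure D2:**
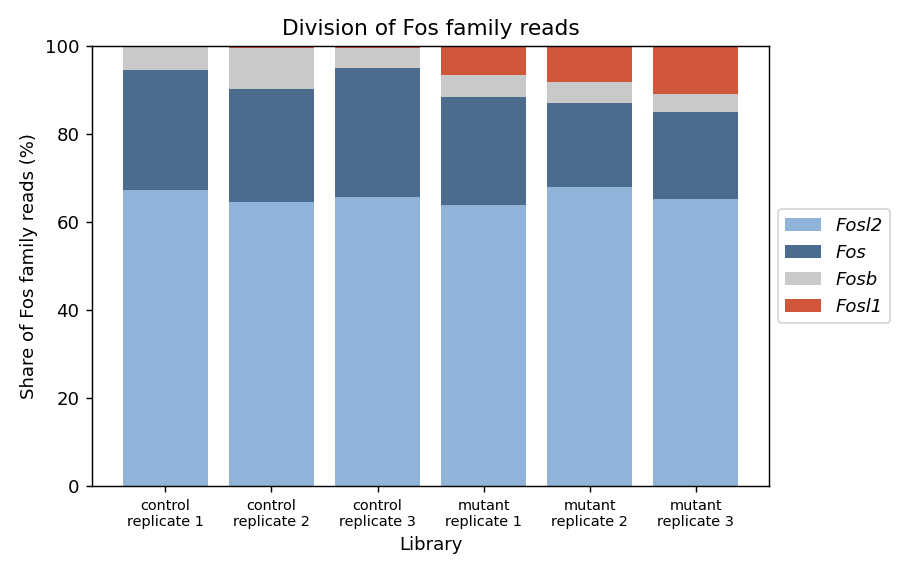
Stacked bars of the share of each of the 4 Fos genes in the Fos family reads of each library, in percent. The *Fosl1* share lies between 0.206 and 0.558% in the 3 control-labelled libraries and between 6.54 and 10.9% in the 3 mutant-labelled libraries, while *Fosl2* holds 63.8 to 68.1% in all 6. Shares are of reads and not of transcripts, since genes differ in length.

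*Atf3* (GSMG0002634, chr1:191170296-191218039, minus strand) encodes a stress-induced ATF protein that is widely used as a marker of injured neurons and is also induced in Schwann cells after nerve injury. The control-labelled libraries had 1216, 998 and 909.9 normalized counts. The mutant-labelled libraries had 8919, 6597 and 9889.7. The lowest of these was 5.43 times the highest control. The log2 fold change was 3.01 (SE 0.17, 95% interval 2.62 to 3.40, limma adjusted p = 1.11e-05). Of the sensory neuron markers, 3 of 5 were higher, and most of their sum was *Tubb3*, as given above. The part of these markers in the rise of *Atf3* was not tested.

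*Maff* (GSMG0013375, chr15:79346619-79359076, plus strand) encodes a small MAF protein that pairs with Fos proteins or with NRF2. Its values were 334, 411 and 373 in the control-labelled and 4782, 4595 and 3822 in the mutant-labelled libraries. The highest library was 1.23 times the lowest in the controls and 1.25 times in the mutants, around means of 373 ± 38.4 and 4399 ± 509 (SD, n = 3). The log2 fold change of 3.56 (SE 0.14, 95% interval 3.24 to 3.87, adjusted p = 2.39e-06 by limma) was the largest after *Fosl1* and *Batf2*.

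BATF proteins pair with Jun and, in lymphocytes and dendritic cells, bind DNA together with IRF4 or IRF8. *Batf2* (GSMG0019330, chr19:6140982-6172476, plus strand), also induced by interferon, had 54.4, 189.9 and 15.2 normalized counts in the control-labelled libraries and 2029, 1394 and 1705 in the mutant-labelled ones. The control-labelled libraries differed by 12.5-fold among themselves, the widest spread of any member. The ratio of the means was 19.8 (86.5 ± 91.7 to 1709 ± 317, SD, n = 3) and the log2 fold change 4.93 (SE 0.74, 95% interval 3.24 to 6.61, limma adjusted p = 0.0013). The log2 fold change was 5.82 without control replicate 2 and 4.04 without control replicate 3, so that either control moved the fold by more than 1.5 times. On the counted reads it was 4.28 with edgeR and 4.30 with DESeq2. The order of the controls, replicate 2 above replicate 1 above replicate 3, was found in 4 of the 6 genes of an interferon signature, among them *Isg15* (722, 2635 and 375 normalized counts) and *Ifit1* (332, 1237 and 78.6). In the other 2, *Cxcl10* (635, 1312 and 1094) and *Ifit2* (2666, 3298 and 2722), replicate 1 was the lowest, and replicate 2 was the highest in all 6. The signature summed to 4316 to 8562 in the control-labelled and 234846 to 314813 in the mutant-labelled libraries, and its part in the rise of *Batf2* was not tested.

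*Batf* (GSMG0008337, chr12:85686677-85709087, plus strand), a regulator of T cell differentiation, was the member with the smallest and least certain change. Its values were 13.3, 83.2 and 71.0 in the control-labelled libraries, from 12, 88 and 56 reads, and 195, 197 and 114 in the mutant-labelled ones. The log2 fold change was 1.89 (SE 0.66, 95% interval 0.39 to 3.40, limma adjusted p = 0.0544), and its adjusted p was 0.071 with edgeR and 0.0215 with DESeq2. Control replicate 1 stood below the others, and without it the log2 fold change was 1.08. Without mutant replicate 1 or 2 the call was lost (log2 fold change 1.77 and 1.76). T cell markers summed to 127 to 217 normalized counts in the control-labelled and 743 to 906 in the mutant-labelled libraries, with 3 of 5 tested markers (*Lck*, *Cd4* and *Cd8a*) higher past the threshold. *Cd8a* had no control reads and a mutant-labelled mean of 15.2, so it was tested only through the mutant-labelled libraries. Most of the rise in the sum was *Lck*, from a mean of 35.7 to 526. Of the T cell receptor complex genes, *Cd3d* had no control reads and a mean of 6.52 in the mutant-labelled libraries, too low to be tested, and *Cd3e* and *Cd3g* did not pass (limma adjusted p = 0.742 and 0.239). B cell markers summed to 113 to 143 in the control-labelled and 68.2 to 95.3 in the mutant-labelled libraries, with 0 of 4 higher or lower past the threshold. Dendritic cell markers summed to 465 to 621 and 645 to 735, with 1 of 2 tested markers higher. The part of these markers in the rise of *Batf* was not tested.

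**Figure D3:**
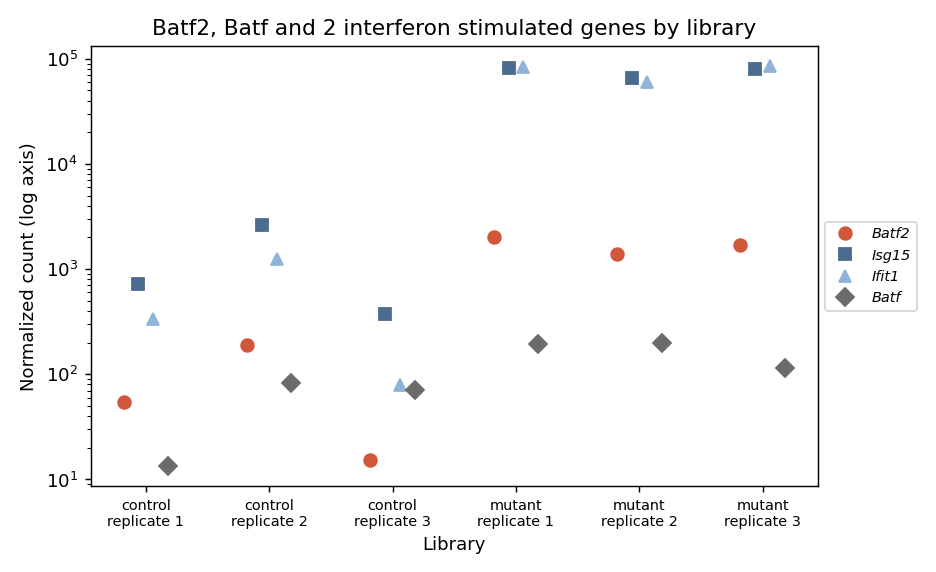
Normalized counts (log axis) of *Batf2*, *Batf* and 2 of the 6 signature genes, *Isg15* and *Ifit1*, in each of the 6 libraries. In the control-labelled libraries *Batf2*, *Isg15* and *Ifit1* are all highest in replicate 2 and lowest in replicate 3, whereas *Batf* is lowest in replicate 1. Counts are not corrected for gene length, so heights are not comparable between genes.

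The members differed in how steady they were. In the control-labelled libraries the highest value was 1.23 to 1.34 times the lowest for *Maff*, *Fos*, *Fosl2* and *Atf3*, 2.25 to 2.30 times for *Fosb* and *Fosl1*, 6.24 times for *Batf* and 12.5 times for *Batf2*. In the mutant-labelled libraries it was 1.07 to 1.73 times for all 8. Some members are neighbours: *Fos* and *Batf* lie 209 kb apart on chromosome 12, and *Fosl1* and *Batf2* 685 kb apart on chromosome 19.

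**Figure D4:**
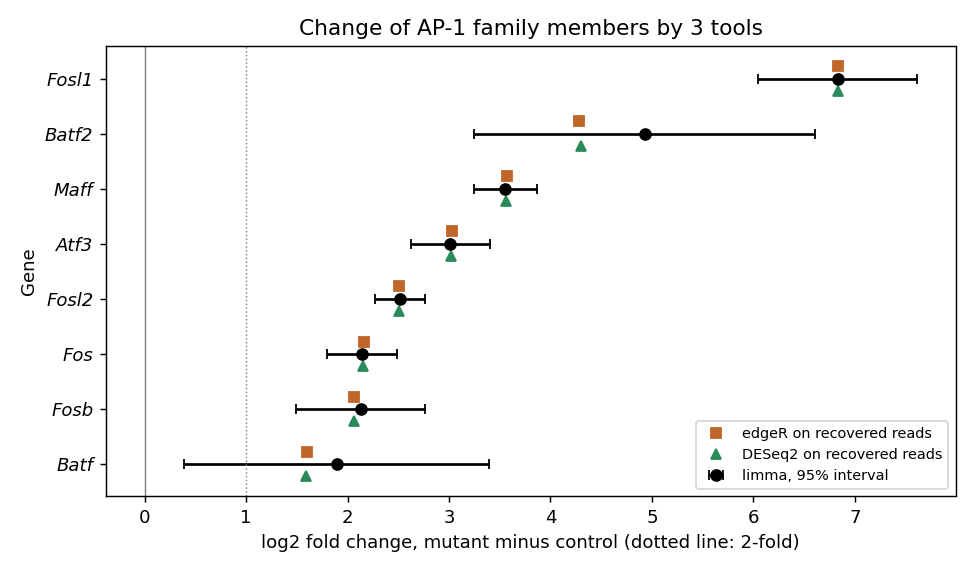
Log2 fold change, mutant-labelled minus control-labelled, of the 8 measured members, as limma estimates with 95% intervals (circles) and as edgeR (squares) and DESeq2 (triangles) estimates from the counted reads, with a dotted line at 2-fold. All 8 limma intervals lie above 0, from 0.39 at the lower end for *Batf* to 7.61 at the upper end for *Fosl1*, and those of *Batf2* and *Batf* are the widest, with the edgeR and DESeq2 estimates below the limma estimates in both.

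For each member, the 3 genes with the most similar profile were found as the smallest Euclidean distance between mean-centred log2 values over the 6 libraries, among 16641 genes with a symbol. The distance includes the change between the groups. For *Fos* these were *Pcgf5* (distance 0.20), *Csf2rb* (0.25) and *Ier5l* (0.30), and for *Fosb* they were *Gdap1l1* (0.43), *Greb1l* (0.45) and *Plcd3* (0.48). For *Fosl1* they were the interferon-induced chemokine *Cxcl10* (0.59), *Hmx3* (0.99) and *Nell1* (1.08), and for *Fosl2* they were *Muc1* (0.21), *Arid5a* (0.27) and the immediate early gene *Ier2* (0.28). *Atf3* was nearest to *Arhgef2* (0.21), *E030003E18Rik // Aldh1a1* (0.26) and *A430105I19Rik* (0.27), and *Maff* to the immediate early gene *Egr1* (0.42), *2310008N11Rik* (0.47) and *Mlana* (0.48). *Batf* was nearest to *Jakmip3* (0.34), *Pou2f2* (0.57) and *Pcsk2os1* (0.61), and *Batf2* to the interferon-stimulated genes *Irgm2* (0.54), *Rtp4* (0.63) and *Irgm1* (0.84).

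Lists of genes around AP-1 give the setting of these changes. They too were chosen with earlier results of these data known. Of 22 other bZIP factors, 20 were tested, and 6 were higher, none was lower and 14 did not pass, with a median log2 fold change of 0.69. *Ddit3*, which encodes the stress factor CHOP, rose by 3.64 on the log2 scale, *Batf3*, a partner of Jun in dendritic cells, by 3.14, *Atf5*, a stress-response factor, by 2.25, and the small MAF gene *Mafk* by 1.19. *Atf4* (0.85, limma adjusted p = 0.000137), the translationally induced stress factor, was higher by less than 2-fold. *Nfe2l2* (0.30, limma adjusted p = 0.092), which encodes NRF2, did not pass. The share of higher genes, 6 of 20, stands beside 13.9% of all tested genes, and the 8 members were higher in 8 of 8.

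Of 23 kinases, ternary complex factors and phosphatases upstream of AP-1, 6 were higher, 1 was lower and 16 did not pass, with a median log2 fold change of 0.31. The share that passed in either direction was 30.4%, beside 24.2% of all tested genes, and 26.1% were higher, beside 13.9%. The higher ones included the MAP kinase phosphatases *Dusp5* (2.80), *Dusp2* (2.50) and *Dusp10* (1.59), which switch MAP kinases off, and the JNK gene *Mapk10* (2.22, but 2.88 without control replicate 1 and 1.51 without control replicate 3). *Dusp4* was the gene that was lower (-1.10). *Mapk3* (-0.80, limma adjusted p = 0.000702), which encodes ERK1, and *Dusp6* (0.63, limma adjusted p = 0.00196) changed by less than 2-fold.

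Of 24 other immediate early genes, 18 were higher, none was lower and 6 did not pass, with a median log2 fold change of 2.01. Of all tested genes, 13.9% were higher and 10.4% lower. *Egr4*, of the EGR family of zinc finger factors, had no control reads, so it was tested only through the mutant-labelled libraries. It was at least 19.3-fold higher against a floor of 3 reads in each control library. The stress-response gene *Gadd45b* rose by 4.33 on the log2 scale, *Csrnp1*, a nuclear protein gene, by 4.23, and *Arc*, known from synaptic plasticity, by 3.80. *Egr2*, the pro-myelinating factor of Schwann cells, had a change of -0.72 (limma adjusted p = 0.00989). That of *Nr4a1* was 0.93 (limma adjusted p = 0.000145). Neither reached 2-fold.

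Of 26 textbook AP-1 target genes, 24 were tested, and 16 were higher, 2 were lower and 6 did not pass, with a median log2 fold change of 2.62, again beside 13.9% higher and 10.4% lower of all tested genes. Among the higher ones, *Areg*, *Mmp12*, *Mmp13* and *Il6* had control means under 10 and were tested only through the mutant-labelled libraries. With a minimum mean of 50, 15 targets passed in either direction. The chemokine *Ccl2* (5.28) and the cytokine *Lif* (4.61) were among the higher ones. The cytokine *Il6* was higher by 7.71, but only control replicate 1 held reads of it, and the value was 8.86 without that library and between 5.24 and 9.96 over all alternatives. *Areg*, an epidermal growth factor receptor ligand, had no control reads and was at least 10.8-fold higher. *Epgn* (-1.54), a ligand of the same receptor, and *Bcl2l11* (-1.19), which encodes the cell death protein BIM, were lower. The matrix protease *Mmp14* (0.12) and the cell cycle inhibitor *Cdkn1a* (0.0057) did not pass.

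**Figure D5:**
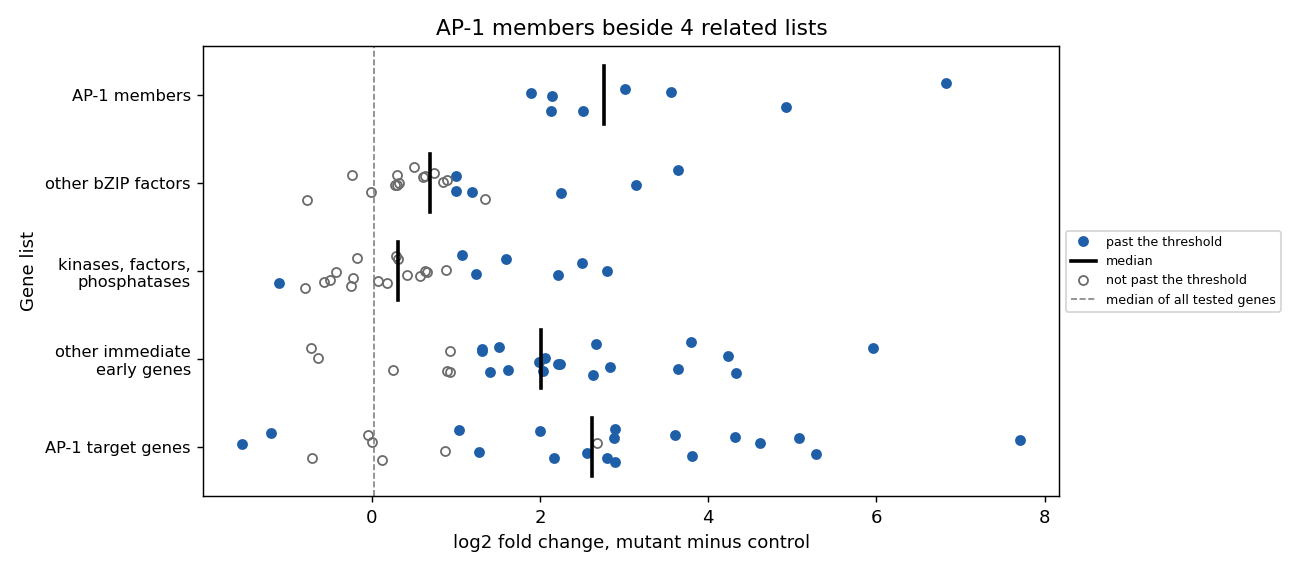
Log2 fold change, mutant-labelled minus control-labelled, of each tested gene in the 8 AP-1 members and the 4 related lists, with filled points past the threshold, open points not past it, a bar at each list's median and a dashed line at the median of all tested genes (0.032). The medians run from 0.31 for the kinases, factors and phosphatases to 2.76 for the AP-1 members.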

How the data were processed

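The submitters' processing notes name STAR 2.4.0, the mm10 build and DESeq. The authors deposited a single matrix whose unit is a signal, made by counting reads on constitutive regions of FAST DB genes and dividing each library by its DESeq2 size factor, with no expression filter. Dividing by the value of 1 read gave whole numbers for 100% of values (tolerance 0.01), and edgeR and DESeq2 used these reads. Groups and replicate numbers come from the labels. The numbers name different animals.

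limma (lmFit, then eBayes with trend) compared log2(value + 1) for genes with a mean of at least 10 in at least 1 genotype. The members and lists were chosen with earlier results of these data known, and the interferon signature was added after the values were seen. The named genes are the members, in each list the 4 with the largest change among those that passed and the 2 with the highest mean among those that did not, and the 3 nearest profiles of each member. *Dusp4*, *Epgn*, *Bcl2l11*, *Mmp12*, *Mmp13*, the interferon genes *Isg15*, *Ifit1* and *Ifit2*, the overlapping *Ccdc85b* and *Arl2*, and the cell type markers were named after their values were seen. Lower bounds use 3 reads per control library. The reads carry no molecular identifiers, so PCR copies count as molecules, and intervals and floors cover counting error only.

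The alternatives were 12 other settings and leaving out each of the 6 libraries (for the shares, only those that could change them and the replicate block): other pseudocounts, filters, scalings and thresholds, limma without trend, edgeR, DESeq2 and a replicate block. On simulated counts, limma called 100 of 100 genes changed by 2 on the log2 scale, 100 of 100 changed by 3, and 60 unchanged genes, of 23390 tested. R 4.3.3, limma 3.58.1, edgeR 4.0.16, DESeq2 1.42.0, version 1.17.8 of the data.table package, Python 3.11.15, numpy 2.4.6, pandas 2.3.3 and matplotlib 3.10.9 were used. Some genes are not reported here.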

Additional observations from a re-analysis of the deposited data

How the results depend on the processing

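Of the 8 measured members, 7 kept their direction and stayed past the threshold under all 12 other settings and without each library in turn. The exception was *Batf*. Its log2 fold change stayed at 1.89 but missed the threshold in limma without trend (unadjusted p = 0.0503, from limma) and with the adjusted p (0.0544), and it ranged from 1.08 to 2.36 when 1 library was left out, with the call lost without mutant replicate 1 or 2. Counts past the threshold ranged from 4 to 9 for the other bZIP factors, 6 to 7 for the upstream genes, 16 to 21 for the immediate early genes, 13 to 19 for the targets and 4706 to 6892 for all genes (edgeR 5805, DESeq2 6026). *Atf4* (1.01) and *Nr4a1* (1.10) passed only when libraries were set to the same total. That scaling moved the median of all genes to 0.20 and the share of called genes that were higher to 66.4%, against 57.3% as reported, and the same 75th percentile moved them to -0.086 and 50.3%. *Cdkn1a* changed sign with the same 75th percentile (-0.11), and it ranged from -0.063 to 0.10 without 1 library, while *Mmp14* ranged from -0.055 to 0.24. The causes were not tested. With a replicate block, 8 members and 6149 genes passed. In this balanced design the block cannot move a mean difference, so log2 fold changes and the *Fosl1* share difference (8.11 points) stayed the same. As a log2 ratio of *Fosl1* to the other 3 Fos genes, the difference was 4.51. Samples of the same number had correlations of -0.062, -0.055 and 0.0089, and not every sample correlated best with its own number. With 3 libraries per genotype, these values cannot show whether the animals were paired, and the labels do not say. The control values of *Fosl1* and *Batf* rest on 10 to 88 reads a library.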
